A study of Homo sapiens with 64 samples.

Results

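The peaks described here are those called 9 h after release from a double thymidine block in U2OS cells and in U2OS cells that carry a short hairpin RNA against TUBG (shTUBG U2OS), for chromatin precipitated with antibodies to γ-tubulin and to PCNA. The members were all peaks of these 4 lists, 505 of the 2442 peaks in the 24 lists of the series. The γ-tubulin list held 153 peaks in U2OS and 67 in shTUBG U2OS, and the PCNA list held 130 peaks in U2OS and 155 in shTUBG U2OS. U2OS is an osteosarcoma cell line, and both lines went through the same synchronization and release. The chromatin had been fragmented with micrococcal nuclease. The labels name 2 samples for each antibody and line, 8 in all, with 4 input samples, and 1 list stands for each pair of samples, so none of the values has an error over replicates.

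The labels give no control hairpin for U2OS. The study describes shTUBG U2OS as populations with stable expression of the hairpin, obtained by drug selection. A hairpin lowers the amount of a protein and does not remove it, and the peak lists do not measure the γ-tubulin level. Both antibodies of a line share its input samples, so their lists are not fully independent. Read depth is unknown, and fewer cells with a bound site and less protein at that site cannot be told apart in such lists. Of the 4 times sampled in U2OS, 9 h had the most γ-tubulin peaks, and the study places this time at G2 and mitosis. The study also refers to a delayed S phase in cells with less γ-tubulin. Whether both lines were in the same phase at 9 h was not tested, so kept, lost and new peaks may include a difference in phase.

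γ-tubulin is the tubulin of the ring complexes that nucleate microtubules at the centrosome, and a fraction of it is found in the nucleus and on chromatin. PCNA is the ring-shaped clamp that encircles DNA, holds the replicative polymerases on the template and recruits repair and chromatin assembly factors through their PIP motifs. Centromeres are built on long arrays of satellite repeats, and ribosomal DNA is the tandem repeat that forms the nucleolus. Reads from such repeats fit several copies in the genome, so a peak there stands for a family of sequences as much as for a place. All positions are given on hg19.

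A U2OS peak was called kept when it and a peak of the same antibody in shTUBG U2OS each shared at least 25% of their length, resized when they shared at least 1 bp but less than that, and lost when no base was shared. A shTUBG U2OS peak was called new when it shared no base with a U2OS peak. Of the 153 γ-tubulin peaks in U2OS, 14 were kept (9.15%, exact Clopper-Pearson 95% interval 5.09 to 14.9), 9 were resized (5.88%) and 130 were lost (85.0%, 78.3 to 90.2). Of the 67 γ-tubulin peaks in shTUBG U2OS, 15 were kept (22.4%), 27 were resized (40.3%) and 25 were new (37.3%, 25.8 to 49.99). PCNA peaks were mostly kept. Of the 130 peaks in U2OS, 101 were kept (77.7%, 69.6 to 84.5), 1 was resized (0.769%) and 28 were lost (21.5%, 14.8 to 29.6). Of its 155 peaks in shTUBG U2OS, 101 were kept (65.2%), 2 were resized (1.29%) and 52 were new (33.5%, 26.2 to 41.6). The kept share was 68.5 percentage points higher for PCNA than for γ-tubulin (two-sided Fisher's exact test, p = 3.87e-34, 1.55e-33 after Benjamini-Hochberg adjustment over 4 tests). The test treated the lists as independent, although 99 of the 153 γ-tubulin peaks of U2OS overlapped a PCNA peak there by the 25% rule. The new share was 3.77 points higher for γ-tubulin, a difference that did not pass the test (Fisher's exact test, p = 0.646), and its direction turned without ribosomal DNA, on chromosomes 1 to 22 and X, and with neighbouring peaks merged. With new taken as no peak sharing 25% of both, the rule used for kept peaks, it was 42.8 points, 52 of 67 against 54 of 155 (Fisher's exact test, adjusted p = 6.91e-09), since the resized γ-tubulin peaks then counted as new. Intervals and tests here cover no replicate error and treat peaks as independent. Neighbouring peaks are not independent, so intervals may be too narrow and p-values too small even as counting error.

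In bases, the γ-tubulin peaks covered 97268 bases in U2OS and 27281 in shTUBG U2OS, and the shared stretches made up 18.1% of the U2OS bases. Outside the mitochondrial genome that share was 11.2%. PCNA peaks covered 73909 bases in U2OS and 85561 in shTUBG U2OS, with 82.7% of the U2OS bases shared and 95.4% outside the mitochondrial genome. The nuclear PCNA footprint of U2OS was thus almost wholly contained in that of shTUBG U2OS, while the nuclear γ-tubulin footprint was not.

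By median, kept and lost peaks differed in their score in the deposited list. The median score of the U2OS γ-tubulin peaks was 351 for the kept, 461 for the resized and 108 for the lost ones. The kept peaks were of 2 sorts, with a median of 615 for the 7 that had PCNA in both lines and of 77 for the 7 that had none, so the latter lay below the lost median. For PCNA in U2OS it was 119 for the kept and 69.5 for the lost peaks, and in shTUBG U2OS it was 141 for the kept and 74 for the new peaks. The highest γ-tubulin score was 896 in U2OS and 142 in shTUBG U2OS, whereas the highest PCNA score was 944 and 822. Scores were not compared further between lists, because the scale and depth behind each list are not known.

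**Figure D1:**
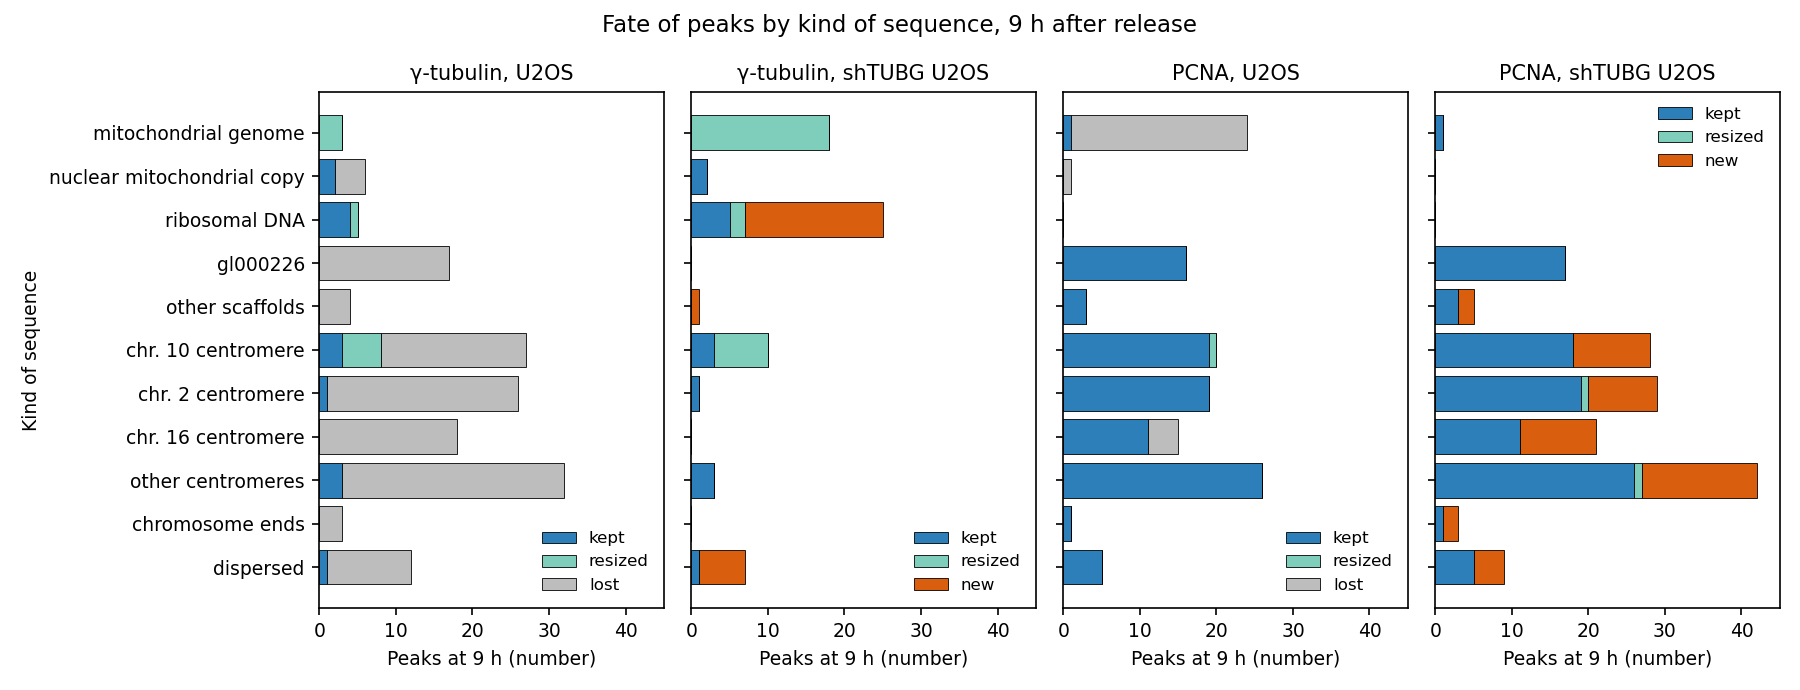
Number of peaks (x axis) by kind of sequence (y axis) in each of the 4 lists at 9 h, coloured by whether the peak was kept, resized, lost or new between U2OS and shTUBG U2OS. Lost γ-tubulin peaks lie mostly beside centromeres and on the scaffold gl000226, where PCNA peaks were kept. The 18 new γ-tubulin peaks on ribosomal DNA have no PCNA counterpart, and 23 of 24 PCNA peaks on the mitochondrial genome were lost.

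Most peaks of both U2OS lists lay beside centromeres, and so did most lost γ-tubulin and new PCNA peaks. The centromere windows together with the unplaced scaffold gl000226 held 120 γ-tubulin peaks in U2OS and 14 in shTUBG U2OS, and 108 of the 120 were lost (90%), near the 85.0% over the whole list. None of the 25 new γ-tubulin peaks fell there. The same sequences held 96 PCNA peaks in U2OS and 137 in shTUBG U2OS, with 4 of the 96 lost and 44 new. The new share there, 32.1%, was near the 33.5% over the whole list. These kinds of sequence therefore made up 78.4% of the γ-tubulin list in U2OS and 20.9% in shTUBG U2OS, and 73.8% and 88.4% of the PCNA list.

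The chromosome 2 centromere cluster, chr2:92268981-92326127, was the cluster with the most peaks. It held 26 γ-tubulin peaks in U2OS and 1 in shTUBG U2OS, the latter on a kept position at the left edge of the cluster. PCNA peaks there numbered 19 in U2OS, all kept, and 29 in shTUBG U2OS, of which 9 were new. The chromosome 16 cluster, chr16:46386368-46435571, lost all 18 γ-tubulin peaks. It was the one centromere cluster in which PCNA moved in both directions, with 11 of 15 U2OS peaks kept, 4 lost and 10 new among 21 in shTUBG U2OS. The scaffold gl000226, from base 40 to 14976, went from 17 γ-tubulin peaks to 0, while all 16 PCNA peaks were kept and all 17 PCNA peaks of shTUBG U2OS matched a U2OS peak.

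Chromosome 10 held most of the centromeric γ-tubulin peaks of shTUBG U2OS. Its centromere window held 27 γ-tubulin peaks in U2OS, of which 3 were kept, 5 were resized and 19 were lost, and 10 narrower ones remained in shTUBG U2OS. They covered 22616 bases in U2OS and 3965 in shTUBG U2OS, all of the latter within the U2OS peaks. Its kept count, 3 of 27, was like that of the other centromere windows, 3 of 32. Its lost share was lower, 70.4% against 90.6%, since 5 of its peaks were resized against 0 there. Of the 10, 7 lay in the cluster chr10:42360689-42409437 and 3 in the cluster chr10:42527876-42600571. PCNA on chromosome 10 rose from 20 to 28 peaks, with 19 kept, 1 resized, 10 new and none lost.

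The other centromere windows held 32 γ-tubulin peaks in U2OS, 3 of which were kept and 29 lost, against 26 PCNA peaks, all kept, and 15 new PCNA peaks. Of these 15 new PCNA peaks, 11 lay in a pair of clusters on chromosome 4. The cluster chr4:49110266-49156689 had 1 PCNA peak in U2OS and 6 in shTUBG U2OS, and chr4:49634718-49654549 had 0 and 6. Each of them held 1 γ-tubulin peak in U2OS, which was lost. On chromosome 11, the cluster chr11:51579359-51591344 went from 7 γ-tubulin peaks to 0 with 6 PCNA peaks in both lines.

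**Figure D2:**
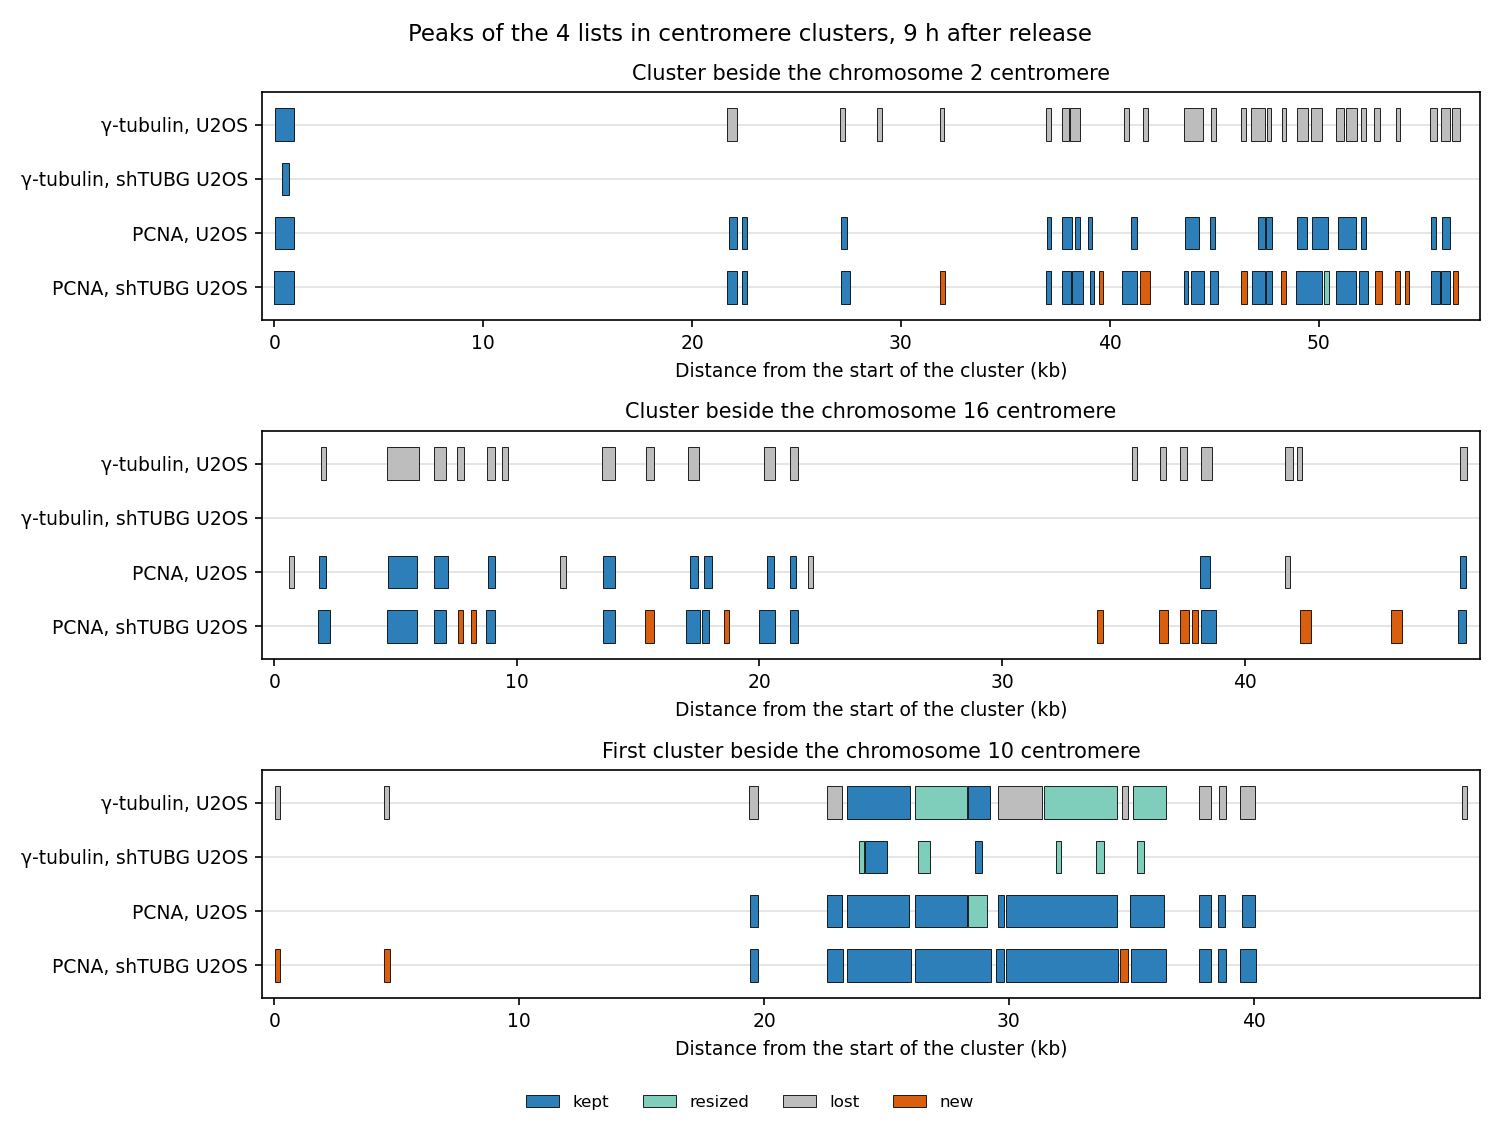
Peaks of the 4 lists along 3 centromere clusters, with distance from the cluster's first base in kb on the x axis and 1 row per list, coloured by class. In the chromosome 2 cluster 26 γ-tubulin peaks in U2OS face 1 in shTUBG U2OS, in the chromosome 16 cluster 18 face 0, and in the first chromosome 10 cluster 15 face 7, while the PCNA rows of both lines hold peaks in all 3.

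The 3 kept γ-tubulin peaks with the highest scores lay beside centromeres. The peak chr1:121484017-121485485, beside the chromosome 1 centromere, had the highest γ-tubulin score in U2OS, 896, and was called again in shTUBG U2OS with a score of 142. PCNA at the same place scored 944 in U2OS and 822 in shTUBG U2OS, the highest value of each PCNA list. At chr10:42598943-42600538 the γ-tubulin scores were 764 and 117 and the PCNA scores 794 and 736. At chr10:42384098-42386637 they were 654 and 103 for γ-tubulin and 645 and 585 for PCNA. All 3 positions thus held a called γ-tubulin peak and a called PCNA peak in both lines.

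High score alone did not mark a kept position. The lost γ-tubulin peak with the highest score, chr7:61970127-61970606, scored 429 in U2OS. PCNA there scored 318 in U2OS and 421 in shTUBG U2OS. The next lost peaks by score were chr10:42390236-42392042, at 426, with PCNA at 585 and 593, and chr10:42400121-42400761, at 378, with PCNA at 404 and 433. At each of these 3 positions γ-tubulin had been called in U2OS in all 4 time groups and in shTUBG U2OS in none.

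Ribosomal DNA was where γ-tubulin peaks were gained. The kind comprised the scaffold gl000220, which holds a copy of the 45S repeat, and the short arm of chromosome 21. It held 5 γ-tubulin peaks in U2OS, covering 2169 bases, and 25 in shTUBG U2OS, covering 9716 bases. Of the 5 U2OS peaks, 4 were kept and 1 was resized, so no position was lost, and 18 of the 25 shTUBG U2OS peaks were new. PCNA had no peak on ribosomal DNA in either line at this time. The new peaks with the highest scores on the assembled chromosomes were chr21:9827050-9827427, at 128, and chr21:9825789-9826275, at 103. On gl000220 the new peaks scored from 39 to 129. All 18 new ribosomal peaks shared a base with a γ-tubulin peak of shTUBG U2OS at another time, and 9 of them with a γ-tubulin peak of U2OS at another time.

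On the mitochondrial genome the peaks of both antibodies covered fewer bases in shTUBG U2OS, while the number of peaks rose for γ-tubulin and fell for PCNA. In U2OS, 3 γ-tubulin peaks, chrM:1-8301, chrM:8359-14144 and chrM:14216-16571, covered 16443 of the 16571 bases. In shTUBG U2OS they were replaced by 18 peaks of 204 to 1015 bp that covered 8517 bases, every one inside a U2OS peak and too narrow to count as kept. PCNA went from 24 peaks and 10103 bases to 1 peak, chrM:7775-8039, of 265 bases. The mitochondrial share of the γ-tubulin list rose by 24.9 percentage points and that of the PCNA list fell by 17.8 (two-sided Fisher's exact tests, both with an adjusted p of 5.09e-08 over 2 tests). The rise in the γ-tubulin share went with narrower peaks, fewer covered mitochondrial bases and a fall from 150 to 49 nuclear peaks. The PCNA call was lost when peaks within 1000 bp were merged, where the difference fell to -0.417 points because each list then held 1 mitochondrial peak.

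**Figure D3:**
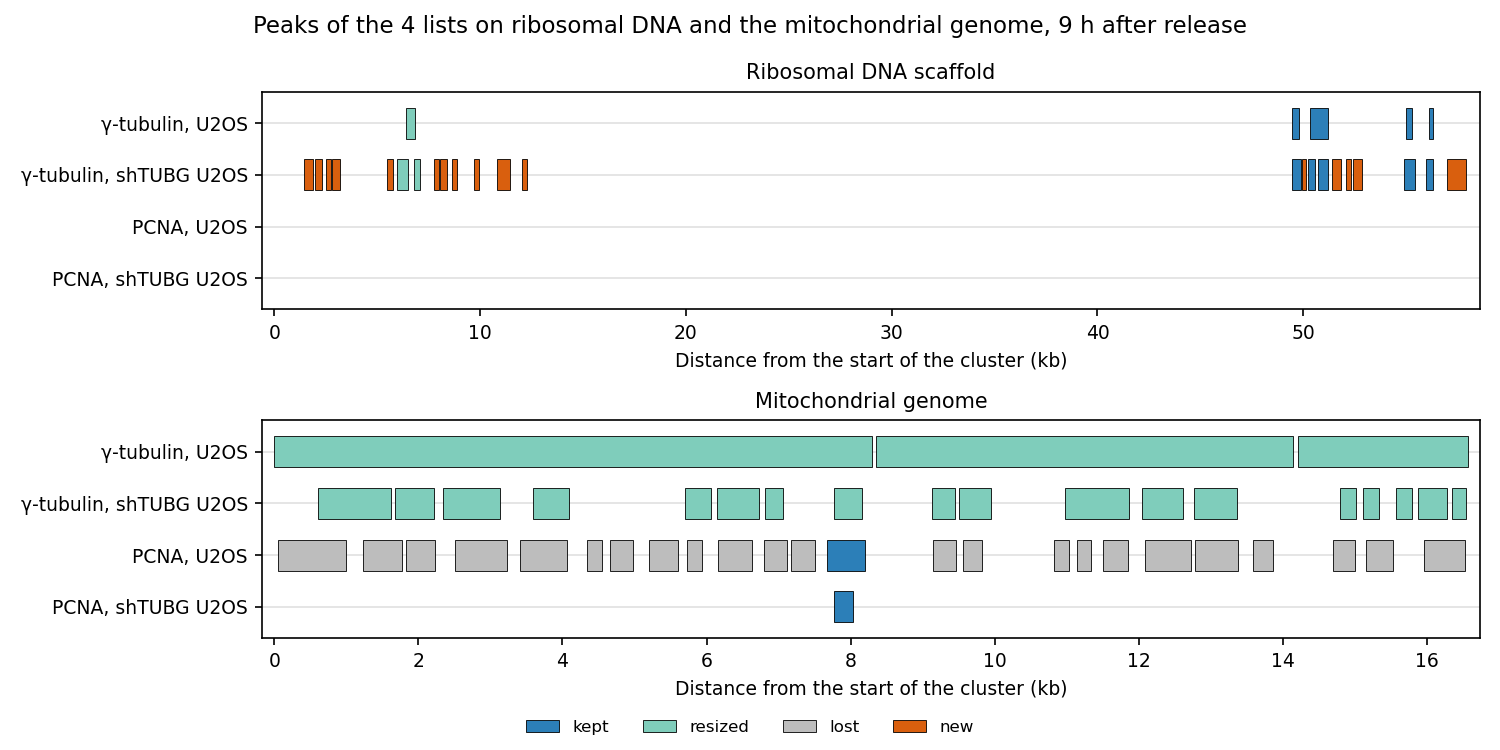
Peaks of the 4 lists along the ribosomal DNA scaffold gl000220 and the mitochondrial genome, with distance from the cluster's first base in kb on the x axis and 1 row per list, coloured by class. On the scaffold 5 γ-tubulin peaks in U2OS face 23 in shTUBG U2OS and PCNA has none. On the mitochondrial genome 3 wide γ-tubulin peaks face 18 narrow ones, and 24 PCNA peaks face 1.

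A copy of mitochondrial sequence in the nuclear genome, at chr1:564625-570258, held 6 γ-tubulin peaks in U2OS and 2 in shTUBG U2OS, with 2 kept and 4 lost. The PCNA list had 1 peak there in U2OS and none in shTUBG U2OS. Both antibodies thus covered fewer bases in shTUBG U2OS on this copy, as on the mitochondrial genome itself.

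Outside these windows, 12 γ-tubulin peaks in U2OS were classed as dispersed. Some lay close to a window edge, such as chr9:67320431-67320923, with chr9:66971010-66971475 counted in a centromere window, so dispersed does not mean far from a centromere. Of the 12, 1 was kept, at chr19:55813987-55814245, with scores of 77 in U2OS and 107 in shTUBG U2OS. A new peak of score 100 stood next to it at chr19:55812827-55813028. The 11 lost ones included chr3:196625523-196625887, with a γ-tubulin score of 262 and PCNA scores of 205 and 225, and chr9:69710851-69711301, with 254 for γ-tubulin and 203 and 218 for PCNA. PCNA had 5 dispersed peaks in U2OS, all kept, and 9 in shTUBG U2OS. Of the 6 new dispersed γ-tubulin peaks, 3 were on chromosome 17, at chr17:34800055-34800254, chr17:40766398-40766616 and chr17:40818197-40818552, with scores of 25, 44 and 32. They were singled out after their values were seen. TUBG1 and TUBG2, which encode γ-tubulin, also lie on chromosome 17, but the gene table used here is on another build, and no peak was assigned to a gene.

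Counted by cluster, with peaks of all 24 lists joined when within 100 kb, the 4 lists occupied 45 clusters. The 12 clusters with at least 10 peaks held 417 of the 505 peaks (82.6%). γ-tubulin was present in 34 clusters in U2OS, and 10 of these still held a γ-tubulin peak in shTUBG U2OS, where 6 further clusters had one only in that line. PCNA was present in 22 clusters in U2OS and in 21 of the same clusters in shTUBG U2OS, with 8 further clusters only in shTUBG U2OS. Both antibodies had a peak in 7 clusters in shTUBG U2OS.

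At the places that lost γ-tubulin, PCNA mostly stayed or was added. Of the 130 lost γ-tubulin positions, 85 had PCNA in both lines, by the 25% overlap, 23 had it only in shTUBG U2OS, 2 only in U2OS and 20 in neither. PCNA was thus present at 87 of these positions in U2OS (66.9%) and at 108 in shTUBG U2OS (83.1%). The 23 gains against 2 losses passed the test, which takes positions as independent (exact McNemar test, two-sided, p = 1.94e-05, adjusted p = 2.59e-05). Gains also outnumbered losses elsewhere: of the positions formed from peaks that shared a base, 29 without γ-tubulin in either line gained PCNA and 3 lost it, against 22 and 2 where γ-tubulin was lost. The excess was thus not shown to be particular to lost γ-tubulin positions. The call at the latter rested on the weaker and closely spaced peaks. When only peaks that reached their list's median score were used, it was 6 gains against 3 losses (exact McNemar test, p = 0.508), and with peaks within 1000 bp merged it was 9 against 3 (exact McNemar test, p = 0.146).

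By kind, PCNA was gained at 8 of 25 lost γ-tubulin positions on chromosome 2 and 6 of 19 on chromosome 10. The gains were 4 of 18 on chromosome 16 and 3 of 29 in the other centromere windows. At chromosome ends it was 1 of 3 and among dispersed positions 1 of 11, against 23 of 130 (17.7%) over all lost positions. On gl000226 all 17 lost γ-tubulin positions had PCNA in both lines. The U2OS γ-tubulin score had a median of 151 where PCNA was in both lines, 72 where it was gained and 73.5 where it was in neither. Of the 14 positions that kept γ-tubulin, 7 had PCNA in both lines and 7 in neither, the latter on ribosomal DNA, the nuclear mitochondrial copy and chromosome 19.

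The new PCNA peak with the highest score, chr19:27740058-27740341, scored 173 and lay on a lost γ-tubulin peak that scored 167 in U2OS. The next such positions were chr4:49636194-49636537, with a PCNA score of 137 over a lost γ-tubulin peak of 103, and chr2:92315248-92315531, with 127 over 138. On chromosome 10, chr10:42395235-42395573 had a PCNA score of 120 over 92 and chr10:42360695-42360927 had 115 over 76. Other new PCNA peaks had no γ-tubulin peak in either line, such as chr4:49641140-49641364, with a score of 153, and chr2:89878346-89878672, with 152.

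**Figure D4:**
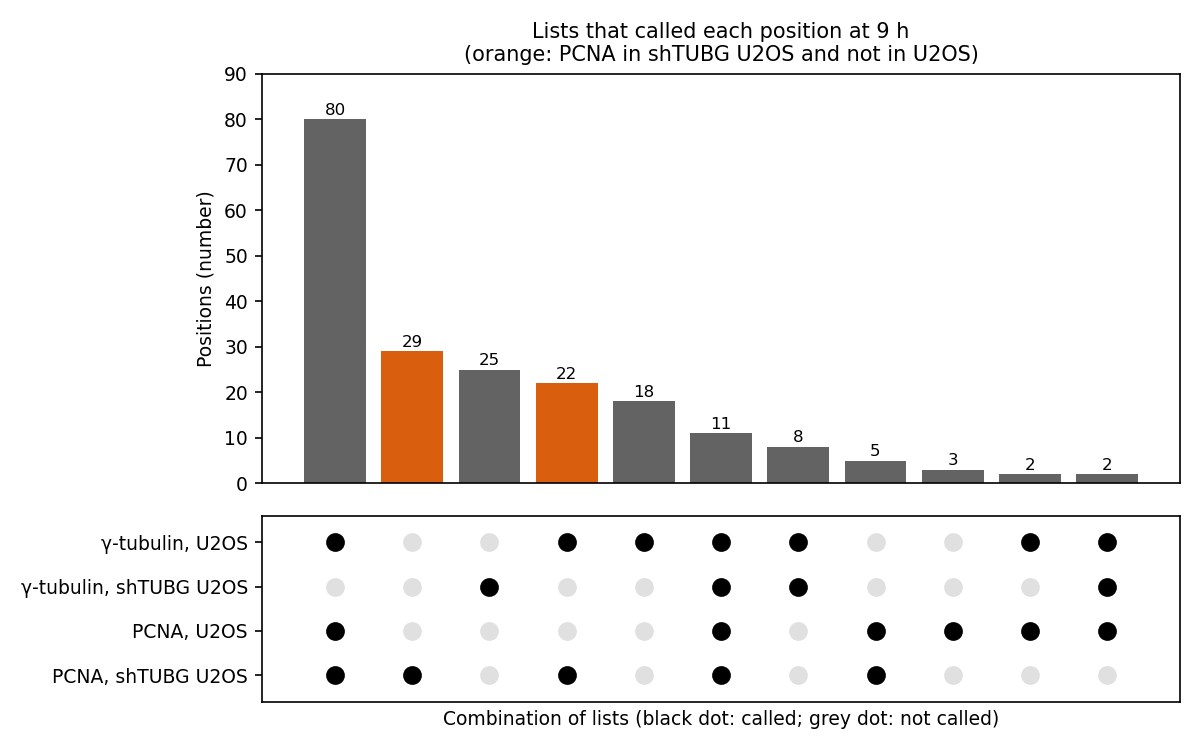
Number of positions, each made of peaks that shared at least 1 bp (y axis), called by each combination of the 4 lists, shown by the black dots under each bar, with combinations in which PCNA was called in shTUBG U2OS and not in U2OS in orange. The commonest combination, 80 of 205 positions, had γ-tubulin in U2OS only and PCNA in both lines. PCNA was gained at 22 positions that lost γ-tubulin and at 29 that had no γ-tubulin peak.

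When peaks of the 4 lists that shared at least 1 bp were joined, 205 positions resulted. At 80 of them γ-tubulin was called only in U2OS and PCNA in both lines. PCNA in shTUBG U2OS alone accounted for 29 positions, γ-tubulin in shTUBG U2OS alone for 25, and lost γ-tubulin with gained PCNA for 22. All 4 lists were present at 11 positions. Both antibodies were called at 95 positions in U2OS and at 11 in shTUBG U2OS.

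In the U2OS line, 85 PCNA peaks lay on a γ-tubulin peak that was lost, and 83 of them were kept. Of the 34 PCNA peaks that had no γ-tubulin peak by the 25% overlap, 8 were kept, a difference of 74.1 percentage points (two-sided Fisher's exact test, p = 4.83e-17, adjusted p = 9.65e-17). Most of these 34 were mitochondrial PCNA peaks that lay inside the wide γ-tubulin peaks. Without mitochondrial peaks the difference was 27.6 points, with 83 of 85 against 7 of 10 kept (Fisher's exact test, adjusted p = 0.0103). On chromosomes 1 to 22 and X it was 26.9 points, and with an overlap of 1 bp it was 31.01 points, with 84 of 86 against 6 of 9 kept. Among the 10 nuclear peaks, the 3 not kept all lay in the chromosome 16 cluster, so the test counted neighbours in a single cluster as independent. PCNA losses outside the mitochondrial genome were 5 in all, 4 on chromosome 16, among them chr16:46398131-46398388 with a score of 56 and chr16:46386986-46387190 with 51, and 1 on the nuclear mitochondrial copy, chr1:565030-565229 with 55.

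The new PCNA peaks differed from the kept ones in which other lists held them. Of the 52 new PCNA peaks, 23 shared a base with a γ-tubulin peak of U2OS at 9 h, all of them lost, and none with a γ-tubulin peak of shTUBG U2OS. Another time's PCNA list held 3 of them in U2OS and 0 in shTUBG U2OS, against 85 and 43 of the 101 kept peaks. A peak of Mcm5, a subunit of the replicative helicase, in U2OS at 9 h coincided with 3 of the 52 new and with 77 of the 101 kept PCNA peaks. In contrast, peaks of the transcription factor FoxM1 in U2OS at 9 h coincided with 50 of the 52 new and with 101 of the 101 kept peaks. These counts use an overlap of 1 bp, and the FoxM1 list held 244 peaks against 109 for Mcm5. By the 25% overlap FoxM1 coincided with 44 of the new and 85 of the kept peaks, and Mcm5 with 3 and 74. The new peaks were also narrower than the kept ones, with a median width of 239 against 478 bp, and scored lower by median. Whether list size or peak strength accounts for the contrast was not tested. The new PCNA peaks without a peak in any U2OS list were chr10:68621761-68621970, with a score of 65, and a position on a chromosome 9 scaffold with a score of 84. The 49 new PCNA peaks on a sequence with a U2OS PCNA peak had a median distance of 1783 bp to the nearest one, and 39 of the 52 lay within 100 kb of such a peak, so most were additions inside clusters that PCNA already occupied.

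New γ-tubulin peaks went with other lists. None of the 25 shared a base with PCNA in either line or with FoxM1 in U2OS at 9 h, and 6 did with Mcm5 in U2OS. A γ-tubulin list of shTUBG U2OS at another time held 23 of the 25. A γ-tubulin list of U2OS at another time held 11 of them, and 18 lay in a U2OS list of any antibody or time. By contrast, of the 130 lost γ-tubulin peaks 83 were held by a γ-tubulin list of U2OS at another time and 8 by one of shTUBG U2OS. The gained γ-tubulin positions, 18 of 25 on ribosomal DNA, thus recurred over times in shTUBG U2OS, while the gained PCNA positions were seen there at 9 h alone. The PCNA lists of shTUBG U2OS were shorter at the other times, with 87, 51 and 25 peaks against 155 at 9 h. Whether list length accounts for the contrast was not tested.

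**Figure D5:**
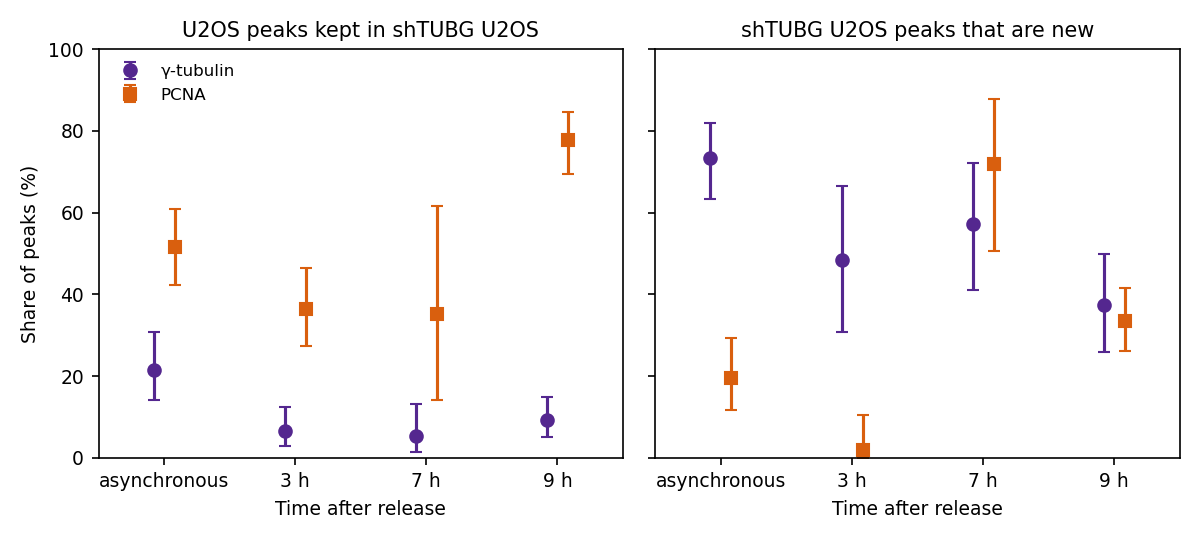
Share of U2OS peaks kept in shTUBG U2OS (left) and share of shTUBG U2OS peaks that were new (right), in percent on the y axis, for asynchronous cells and at 3, 7 and 9 h after release. Points are 1 pair of lists and bars are exact 95% intervals that treat peaks as independent. The kept share of PCNA was 77.7% at 9 h and between 35.3% and 51.7% at the other times, and that of γ-tubulin was 9.15% at 9 h and between 5.33% and 21.6% at the others.

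Set beside asynchronous cells and 3 h, PCNA was kept to a greater extent at 9 h. The asynchronous pair of lists had a PCNA kept share of 51.7%, the 3 h pair 36.5% and the 7 h pair 35.3%, so that of 9 h was higher by 26.0, 41.2 and 42.4 percentage points (two-sided Fisher's exact tests, adjusted p = 5.63e-05, 1.09e-09 and 0.00129 over 6 tests). On nuclear peaks the share was 94.3% at 9 h, against 44.8% in the asynchronous pair and 37.9% at 3 h. A short shTUBG U2OS list limits the kept share. The PCNA list of shTUBG U2OS held 155 peaks for 130 in U2OS at 9 h. It held 87 for 118 in asynchronous cells and 51 for 104 at 3 h. Of the 51 at 3 h, 40 were kept and 1 was new. How far list length accounts for the differences was not tested. The U2OS PCNA list at 7 h held 17 peaks, all mitochondrial, so the difference from 7 h set a mitochondrial list against a mostly nuclear one. On mitochondrial peaks alone 6 of 17 were kept at 7 h and 1 of 24 at 9 h, the opposite direction. Counting each cluster once, the differences from asynchronous cells and 3 h were 30.2 and 34.6 points and no longer passed the adjusted threshold (Fisher's exact tests, adjusted p = 0.0659 and 0.0587), while the comparison with 7 h was left with 1 U2OS cluster. For γ-tubulin the kept share was 21.6% in the asynchronous pair, 6.50% at 3 h and 5.33% at 7 h. That of 9 h was 12.4 points lower than in asynchronous cells (Fisher's exact test, adjusted p = 0.0141), a call that 6 alternatives ended, and its differences of 2.65 and 3.82 points from 3 h and 7 h did not pass the test (Fisher's exact tests, both adjusted p = 0.506). The ribosomal DNA held 12 γ-tubulin peaks of asynchronous U2OS cells and 21 of asynchronous shTUBG U2OS cells, against 10 and 9 after 3 h, 0 and 18 after 7 h, and 5 and 25 after 9 h.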

How the data were processed

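Chromatin immunoprecipitation with sequencing was done on U2OS and shTUBG U2OS cells. Per the labels, the authors used Bowtie2 2.1.0, SAMtools 1.7-13 and MACS2 with hg19, and deposited 1 peak list per antibody, line and time, with a whole-number score for each peak. Which quantity the deposited score holds, how the 2 samples and the inputs were combined, how multiply mapped reads were treated and the read depth are not given in the sources used here.

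Lists were compared by shared bases in Python 3.11.15 with scipy 1.17.1. Kinds of sequence were windows of whole megabases around the hg19 centromeres, named scaffolds, the mitochondrial genome and the last 100 kb of each chromosome, taken by the middle of a peak in a fixed order. The windows were set without a repeat annotation. Named regions were the 3 with the highest score per antibody and class on chromosomes 1 to 22 and X, the 5 highest new PCNA peaks on lost γ-tubulin peaks, up to 5 new peaks found in no U2OS list, and position ranges by kind. The members, kinds and regions were chosen with earlier results of these data known. The peak classes were checked on simulated lists. Fisher's exact test was checked on simulated independent draws, unlike the clustered peaks here, and the McNemar test was not checked. No genome of this build was used, so no peak sequence or gene is given.

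Alternatives were the overlap required, peaks at or above the median score, nuclear or assembled chromosomes, merged peaks and each cluster counted once. Leaving out ribosomal DNA was added after the data were seen.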

Additional observations from a re-analysis of the deposited data

Results flagged for a closer look

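The difference between the lines was not alike for both antibodies, nor at each time. The kept share was higher for PCNA than for γ-tubulin by 68.5 percentage points at 9 h, by a two-sided Fisher's exact test of the difference. That test took the lists as independent, although they share many positions. Between times, the kept share at 9 h differed from that in asynchronous cells by -12.4 points for γ-tubulin and by 26.0 points for PCNA, and for PCNA from 3 h by 41.2 points and from 7 h by 42.4 points, each past the adjusted threshold. The value for 7 h sets 17 mitochondrial peaks, 6 of them kept, against a mostly nuclear list, and on mitochondrial peaks 9 h kept 1 of 24, the opposite direction. The γ-tubulin value passed under some alternatives only. The PCNA lists of shTUBG U2OS were shorter at the other times, with 87, 51 and 25 peaks against 155 at 9 h, which limits their kept shares. The mitochondrial share of the peak number moved in opposite directions, by 24.9 points for the γ-tubulin list and by -17.8 points for the PCNA list. Covered mitochondrial bases fell for both, from 16443 to 8517 and from 10103 to 265, the nuclear γ-tubulin peaks fell from 150 to 49, and with peaks within 1000 bp merged the PCNA value was -0.417 points (Fisher's exact test, p = 1). The difference between these mitochondrial changes was not itself tested.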

How the results depend on the processing

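No paired analysis was possible because a list stands for 2 samples at once, and for the same reason no sample could be left out. Of 109 values under alternatives for 14 results, 80 kept their direction and their side of the threshold or their size. The γ-tubulin kept share was 15.03% with an overlap of 1 bp, 5.23% with one of 50% and 26.5% with clusters counted once. The PCNA kept share was 68.5% with an overlap of 50%, 93.0% on chromosomes 1 to 22 and X, 94.3% without mitochondrial peaks, with or without ribosomal DNA, and 95.5% with clusters counted once. The difference in new share, γ-tubulin minus PCNA, changed sign to -5.69 points on chromosomes 1 to 22 and X, -9.58 with merged peaks, -16.9 without ribosomal DNA, past the threshold in this opposite direction (Fisher's exact test, adjusted p = 0.0374), and -4.60 without mitochondrial peaks and ribosomal DNA. It passed the threshold in the positive direction at 42.8 and 45.5 points when new meant no peak sharing 25% or 50% of both, and at 17.3 points without mitochondrial peaks. The PCNA gains minus losses at lost γ-tubulin positions were 3 among peaks at or above the median score and 6 with merged peaks, neither past the threshold. The mitochondrial PCNA difference with merged peaks was -0.417 points. The γ-tubulin difference from asynchronous cells no longer passed at -4.58 points with an overlap of 50%, -10.7 on chromosomes 1 to 22 and X, -9.22 without mitochondrial peaks, -10.8 with merged peaks, -5.79 with clusters counted once and -7.22 without mitochondrial peaks and ribosomal DNA. The difference from 3 h changed sign to -0.462 with an overlap of 50% and -1.10 with merged peaks, and that from 7 h to -0.103 among peaks at or above the median score. With clusters counted once the PCNA differences from asynchronous cells and 3 h were 30.2 and 34.6 points and no longer passed, and that from 7 h changed sign to -4.55 points. Fewer features entered the merged and cluster counts, and beyond that the cause was not tested. The PCNA difference from 7 h had no value under the 3 alternatives without mitochondrial peaks. Depth is unknown and limits every statement that a peak is absent.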

Other observations

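The study takes a Mcm5 peak that overlaps PCNA as an active replication origin and one that does not as dormant. In U2OS at 9 h, 84 Mcm5 peaks overlapped PCNA by the 25% rule and 25 did not. γ-tubulin was present at 83 of the 84 in U2OS (98.8%) and at 10 in shTUBG U2OS (11.9%). PCNA was called in shTUBG U2OS at 78 of the 84 (92.9%, exact 95% interval 85.1 to 97.3), and 69 of the 84 had lost γ-tubulin and held PCNA in shTUBG U2OS. The 84 held PCNA in U2OS by definition, and none was mitochondrial. Both shares in shTUBG U2OS were near those over all peaks. Of all nuclear PCNA peaks of U2OS 94.3% were kept, and of all its γ-tubulin peaks 9.15% were kept. Of the 25 without PCNA in U2OS by that rule, 2 were mitochondrial. The mitochondrial genome did hold PCNA peaks in U2OS, and the counts that follow include these 2. γ-tubulin was present at 15 of the 25 in U2OS and at 10 in shTUBG U2OS, 6 of them in shTUBG U2OS only. PCNA was present at 4 of the 25 in shTUBG U2OS. All 7 of these 25 that lay on ribosomal DNA had γ-tubulin in shTUBG U2OS. Mcm5 was not analysed here in shTUBG U2OS.

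By the 25% overlap, the U2OS γ-tubulin list at 9 h shared the most peaks with FoxM1 in U2OS at 3 h, 124 of its 153. It shared 120 (78.4%) with the PCNA list of shTUBG U2OS at 9 h and 113 with FoxM1 in U2OS at 9 h. The PCNA list of shTUBG U2OS at 9 h also shared the most with FoxM1 in U2OS, 132 of its 155 peaks at 3 h and 129 at 9 h. It shared 115 with γ-tubulin and 101 with PCNA in U2OS at 9 h. The FoxM1 lists were long, with 202 peaks at 3 h and 244 at 9 h. The γ-tubulin list of shTUBG U2OS shared 36 of its 67 peaks with the PCNA list of asynchronous shTUBG U2OS cells. These overlaps are descriptions without a test.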
